A study of Homo sapiens with 16 samples.

Results

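Nuclear RNA responded to siPANAD in a different way in each of 2 liver cancer cell lines, SNU-449 and HepG2, and that line difference was measured gene by gene. The measure was the log2 fold change of siPANAD over NC in SNU-449 nuclei minus the log2 fold change of siPANAD over NC in HepG2 nuclei. It used the 8 nuclear libraries among the 16 libraries of the series. These were 2 of SNU-449 with siPANAD, 2 of SNU-449 with NC, 2 of HepG2 with siPANAD and 2 of HepG2 with NC. NC is the negative control siRNA, and siPANAD stands for siPANAD-1 mixed with siPANAD-2, both aimed at PANAD, which the title of the series also names C7orf25. All cells were harvested 48 h after transfection, and both replicates of a group are described as biological duplicates. SNU-449 was grown in RPMI and HepG2 in DMEM, so line and medium cannot be told apart, and because the siRNAs were pooled their separate effects cannot be told apart either. The title of the series ties PANAD to the export receptor NXF1 and to the nuclear export of CDK6 mRNA. A value above 0 means that the gene was raised more, or lowered less, by siPANAD in SNU-449 than in HepG2.

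HepG2 is an epithelial liver cancer line that keeps many hepatocyte traits, whereas SNU-449 comes from a poorly differentiated hepatocellular carcinoma and has mesenchymal traits. Nuclear RNA holds newly made and retained transcripts, so it follows transcription more closely than whole-cell RNA does. The programmes described here are well known: SREBP2 turns on the genes of cholesterol synthesis when membrane sterol is low, MYC turns on the nucleolar machinery that builds ribosomes, growth factor signalling through the MAP kinases turns on the immediate-early genes, and p53, NRF2 and interferon each have a set of target genes.

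The nuclear libraries held between 16238235 and 17695986 counts each. Markers fitted the labelled lines: ALB and HNF4A had at most 0.35 and 0.11 CPM (counts scaled to a common library total) in any SNU-449 library and at least 7873 and 429.8 CPM in every HepG2 library, whereas VIM had at least 1376 CPM in SNU-449 and at most 0.24 CPM in HepG2. FN1, chosen as a marker of SNU-449, went against its label, with 65.3 to 73.5 CPM in SNU-449 and 3688 to 7314 CPM in HepG2, and ZEB1, CDH2 and FOXA2 were detected in both lines. The summed level of the 30 immune, blood and endothelial markers was 42.2 and 48.4 CPM in SNU-449 siPANAD nuclei, 28.2 and 26.1 CPM in SNU-449 NC nuclei, 125.4 and 111.2 CPM in HepG2 siPANAD nuclei and 149.8 and 173.1 CPM in HepG2 NC nuclei, with 2 of the 30 at 0 throughout. Most of each sum came from a single gene. In SNU-449 it was CD14, with 35.1 and 41.7 CPM with siPANAD, against 21.8 and 20.6 CPM with NC. In HepG2 it was LYZ, with 92.0 and 81.3 CPM with siPANAD, against 114.7 and 138 CPM with NC. The sums therefore do not stand for their members. The targeted gene could not check the knockdown: C7orf25 had 3 and 4 counts in SNU-449 siPANAD nuclei, 5 and 7 in SNU-449 NC nuclei, 1 and 4 in HepG2 siPANAD nuclei and 0 and 2 in HepG2 NC nuclei, too few to be tested.

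MALAT1, a long non-coding RNA that stays in the nucleus, moved with the line difference. Its level was 634 and 593 CPM in SNU-449 siPANAD nuclei, against 409 and 409 CPM in SNU-449 NC nuclei, and 391 and 370 CPM in HepG2 siPANAD nuclei, against 396 and 370 CPM in HepG2 NC nuclei. The siPANAD libraries stood above the NC libraries in SNU-449 and overlapped them in HepG2, and the line difference was 0.66 (SE 0.15, adjusted p = 0.00098). GAPDH, an abundant mRNA of the cytoplasm, had a line difference of 0.19 (SE 0.16, adjusted p = 0.38). ACTB, the other cytoplasmic mRNA chosen as a fraction marker, was lower with siPANAD in both lines. It had 4567 and 4301 CPM in SNU-449 siPANAD nuclei, against 8162 and 8084 CPM with NC. In HepG2 nuclei it had 1474 and 1498 CPM with siPANAD, against 2406 and 2116 CPM with NC. The part of nuclear purity in the line differences was not tested. With the trend of each line's effect on the nucleus to cytoplasm ratio removed, 4492 genes were called, against 4639 without that step, and 511 of the 656 genes called with opposite signs in the 2 lines were so again.

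Of the 14691 genes with enough counts in both lines, 4639 (31.6%) had a line difference called at a Benjamini-Hochberg adjusted p under 0.05. The line difference was above 0 in 2413 of them (16.4%) and below 0 in 2226 (15.2%); with libraries scaled by their total counts the split was 1972 above and 2768 below. Within SNU-449, 6662 genes (45.3%) had a called effect of siPANAD, which raised 3341 (22.7%) and lowered 3321 (22.6%). Within HepG2 the effect was called for 7506 (51.1%), with 3733 raised (25.4%) and 3773 lowered (25.7%). The median log2 fold change over all tested genes lay close to 0 in SNU-449 (-0.000476), in HepG2 (-0.00583) and for the line difference (-0.00136). A line difference of at least 1 on the log2 scale was called for 1635 genes, and 309 reached 2.

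The called genes fell into 4 main kinds. In 656 genes (4.47% of those tested) siPANAD had called effects of opposite sign: 321 rose in SNU-449 and fell in HepG2, and 335 fell in SNU-449 and rose in HepG2. In 1250 genes (8.51%) the effect was called in SNU-449 and not in HepG2, and in 1848 genes (12.6%) it was called in HepG2 and not in SNU-449. In 763 genes (5.19%) both lines moved the same way by different amounts, and the larger change was in SNU-449 for 250 and in HepG2 for 513. The remaining 122 genes (0.83%) were called in neither line alone. For comparison, 3346 genes were called in both lines with the same sign, and across genes the fold changes of SNU-449 and HepG2 had a Pearson r of 0.438 and a Spearman rho of 0.432, a description across 14691 genes that are not independent replicates.

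**Figure D1:**
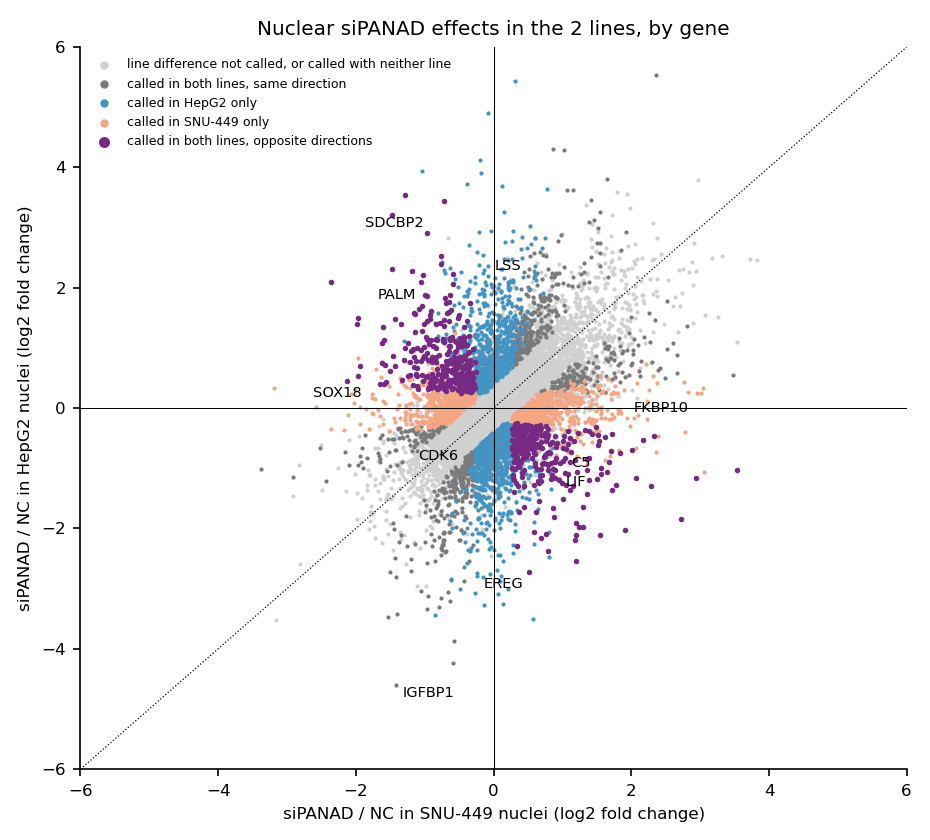
Log2 fold change of siPANAD over NC in SNU-449 nuclei (horizontal axis) and in HepG2 nuclei (vertical axis) for the 14658 tested genes with a symbol, 1 point a gene, coloured by the kind of response. Genes of opposite sign fill the upper left and lower right, genes called in HepG2 alone lie along the vertical axis and genes called in SNU-449 alone along the horizontal axis, and points on the dotted line have the same change in both lines.

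Leaving out single libraries moved these counts. The number rising in SNU-449 and falling in HepG2 was 209 without HepG2 siPANAD replicate 1, 201 without SNU-449 NC replicate 1 and 198 without SNU-449 siPANAD replicate 2. The number with the reverse pattern was 206 without SNU-449 siPANAD replicate 2. The number called in SNU-449 alone was 826 without SNU-449 NC replicate 1 and 778 without SNU-449 siPANAD replicate 2. The number changed in the same direction by different amounts was 486 without HepG2 siPANAD replicate 1, 501 without HepG2 siPANAD replicate 2, 474 without SNU-449 NC replicate 1, 465 without SNU-449 siPANAD replicate 1 and 421 without SNU-449 siPANAD replicate 2. Of the 656 opposite genes, 396 were opposite again without SNU-449 siPANAD replicate 2, and none had the 2 signs exchanged under any alternative tried.

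Long non-coding RNAs made up 33 of the 656 opposite genes (5.03%), against 1725 of all tested genes (11.7%). They made up 9.44% of the genes called in SNU-449 alone, 7.47% of those called in HepG2 alone and 6.68% of those changed in the same direction by different amounts. The shares were not matched for level, and an opposite gene had to be called in each line and for the line difference. The part of level in these shares was not tested.

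Among the genes that rose in SNU-449 and fell in HepG2, LIF, a cytokine of the interleukin-6 family that signals through gp130, was the most abundant of the 8 with the largest effect in both lines. LIF (chromosome 22, 30240447 to 30246851, minus strand, GRCh38) had 1002 and 1089 CPM after TMM scaling, the scale of all gene levels that follow, in SNU-449 siPANAD nuclei, against 525 and 561 CPM in SNU-449 NC nuclei. In HepG2 it had 124 and 135 CPM with siPANAD and 286 and 310 CPM with NC. Genes were named only where siPANAD and NC libraries did not overlap in a called line, so their separation is a part of that choice and no further result; over all tested genes, 14.5% had groups apart in both lines and in opposite directions. The log2 fold change of LIF was 0.95 in SNU-449 and -1.20 in HepG2 (SE 0.11 each), with a line difference of 2.15 (SE 0.16, adjusted p = 1.6e-12).

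C5, complement component 5, which the liver secretes, behaved likewise from a lower level in SNU-449. C5 (chromosome 9, 120952335 to 121050276, minus strand) had 20.7 and 19.3 CPM in SNU-449 siPANAD nuclei, against 8.0 and 11.6 CPM in SNU-449 NC nuclei. With siPANAD it had 74.6 and 74.8 CPM in HepG2 nuclei, against 167 and 148 CPM with NC. Its log2 fold change was 1.03 in SNU-449 (SE 0.15) and -1.08 in HepG2 (SE 0.12), with a line difference of 2.11 (adjusted p = 1.4e-10).

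WNK4, a kinase that controls ion transport, had 29.7 and 32.8 CPM in SNU-449 siPANAD nuclei, against 16.1 and 17.5 CPM with NC, and 13.4 and 17.7 CPM in HepG2 siPANAD nuclei, against 31.1 and 32.5 CPM with NC. NC nuclei of SNU-449 and siPANAD nuclei of HepG2 had similar levels of it, as had the other pair of groups. VSIG10L had 20.4 and 21.4 CPM in SNU-449 siPANAD nuclei, against 9.01 and 7.32 CPM with NC, and 80.4 and 89.4 CPM in HepG2 siPANAD nuclei, against 160 and 145 CPM with NC. The other 4 genes of this kind were KCNAB3, a potassium channel subunit, the zinc finger gene ZNF792, GABBR1, a receptor for GABA, and ROBO3, a receptor in axon guidance. Their log2 fold changes lay between 0.86 and 1.67 in SNU-449 and between -1.12 and -0.89 in HepG2.

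Among the genes that fell in SNU-449 and rose in HepG2, SDCBP2, also called syntenin-2, a scaffold protein with PDZ domains, had the largest line difference of those named here. SDCBP2 (chromosome 20, 1309909 to 1329239, minus strand) had 3.88 and 3.87 CPM in SNU-449 siPANAD nuclei, against 8.0 and 7.14 CPM in SNU-449 NC nuclei. In HepG2 nuclei it had 34.7 and 29.3 CPM with siPANAD and 3.88 and 4.59 CPM with NC. The level was thus lowered in one line and raised well above every other library in the other, with a log2 fold change of -0.97 in SNU-449 (SE 0.19), 2.91 in HepG2 (SE 0.17) and a line difference of -3.88 (SE 0.25, adjusted p = 1.5e-13).

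PALM, paralemmin, a protein of the plasma membrane's inner face, had 27.8 and 25.5 CPM in SNU-449 siPANAD nuclei, against 63.6 and 49.2 CPM with NC, and 52.8 and 55.3 CPM in HepG2 siPANAD nuclei, against 14.6 and 19.7 CPM with NC. Its line difference was -2.74 (SE 0.19, adjusted p = 1.1e-11). MSX1, a homeobox transcription factor, was far lower in SNU-449, with 3.29 and 2.05 CPM in siPANAD nuclei and 5.87 and 4.36 CPM in NC nuclei, against 67.0 and 70.8 CPM in HepG2 siPANAD nuclei and 32.2 and 33.3 CPM in HepG2 NC nuclei. SRRM3, a splicing factor known from neurons, had 19.2 and 18.4 CPM in SNU-449 siPANAD nuclei, against 40.3 and 30.9 CPM with NC, and 26.1 and 28.2 CPM in HepG2 siPANAD nuclei, against 7.35 and 11.1 CPM with NC. FIBCD1, RAB3IL1 and RHOU, a small GTPase, had log2 fold changes between -1.47 and -0.99 in SNU-449 and between 0.87 and 1.57 in HepG2.

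**Figure D2:**
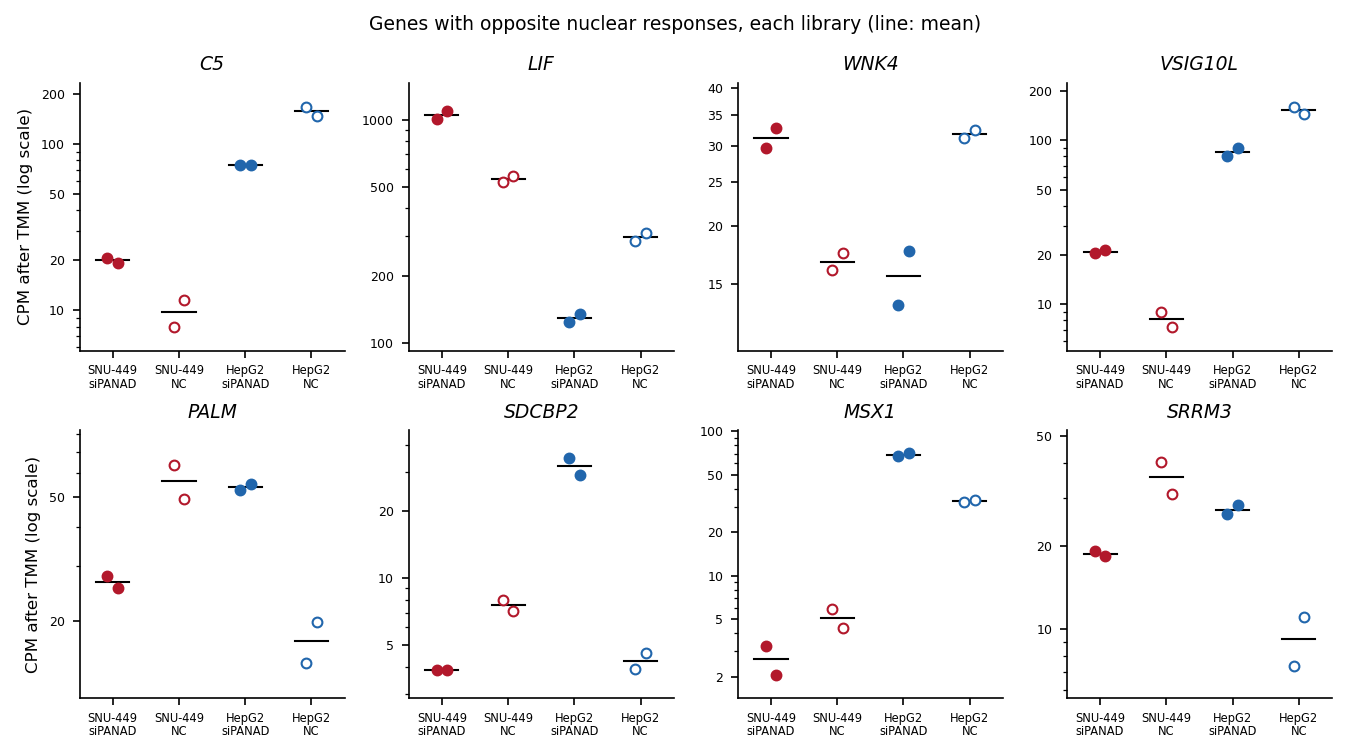
Level of 8 genes with opposite responses in each nuclear library, in CPM after TMM scaling on a log axis, with filled points for siPANAD, open points for NC, red for SNU-449, blue for HepG2 and a line at each mean of 2 libraries. In the upper row siPANAD is above NC in SNU-449 and below it in HepG2, and in the lower row the order is the reverse, as the rule that chose the genes requires.

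In the genes called in SNU-449 alone, the named examples were those with a log2 fold change under 0.25 in HepG2, which 995 of the 1250 had. FKBP10, a chaperone of collagen, rose to 20.2 and 20.9 CPM in SNU-449 siPANAD nuclei, against 5.63 and 5.11 CPM in SNU-449 NC nuclei. In HepG2, where it is far more abundant, it had 1134 and 1300 CPM with siPANAD and 1303 and 1432 CPM with NC. The log2 fold change was 1.93 in SNU-449 (SE 0.15) and -0.17 in HepG2 (SE 0.11, adjusted p = 0.20), a line difference of 2.10.

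LSR, the lipolysis-stimulated lipoprotein receptor, a protein of epithelial tricellular junctions, was closer to its HepG2 level. It had 100 and 102 CPM in SNU-449 siPANAD nuclei, against 41.6 and 31.0 CPM with NC, and 185 and 216 CPM in HepG2 siPANAD nuclei, against 224 and 240 CPM with NC. C20orf204, LMNTD2 and PRR22 also rose in SNU-449, with log2 fold changes between 1.42 and 1.74, and stayed between -0.06 and 0.24 in HepG2. For LMNTD2, 39.5% of the exonic bases lie under exons of another gene, so its reads are less certain.

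ECE1, the enzyme that cuts big endothelin to endothelin, fell to 77.3 and 79.3 CPM in SNU-449 siPANAD nuclei, against 212 and 202 CPM with NC, and had 253 and 278 CPM in HepG2 siPANAD nuclei, against 266 and 274 CPM with NC. Its log2 fold change was -1.40 in SNU-449 and -0.02 in HepG2 (SE 0.11 each). SOX18, a transcription factor of vessel development, NOTUM, a secreted enzyme that inactivates Wnt proteins, and PIEZO2, a mechanically gated ion channel, fell by 1.73 to 2.03 in SNU-449 and had changes between -0.10 and 0.14 in HepG2. Each was scarce in SNU-449, with at most 4.80 CPM in siPANAD nuclei and at most 15.4 CPM in NC nuclei. FGG, the gamma chain of fibrinogen, had 35.3 and 34.6 CPM in SNU-449 siPANAD nuclei, against 96.1 and 74.7 CPM with NC, and 424 and 349 CPM in HepG2 siPANAD nuclei, against 450 and 441 CPM with NC.

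Of the 1848 genes called in HepG2 alone, 1469 had an absolute log2 fold change under 0.25 in SNU-449. BMF, a BH3-only protein that promotes apoptosis, had 249 and 251 CPM in SNU-449 siPANAD nuclei, against 286 and 272 CPM in SNU-449 NC nuclei, whereas in HepG2 it had 129 and 122 CPM with siPANAD and 27.9 and 24.9 CPM with NC. The log2 fold change was -0.16 in SNU-449 (SE 0.11, adjusted p = 0.24) and 2.25 in HepG2 (SE 0.12), a line difference of -2.41 (adjusted p = 3.1e-13). ASB9, an adaptor of ubiquitin ligases, had 25.7 and 23.1 CPM in SNU-449 siPANAD nuclei, 22.4 and 21.7 CPM in SNU-449 NC nuclei, 29.2 and 25.9 CPM in HepG2 siPANAD nuclei and 2.63 and 3.08 CPM in HepG2 NC nuclei. With siPANAD, HepG2 thus came to the level of SNU-449. SIGIRR, a brake on interleukin-1 receptor signalling, and LAMA3, a laminin chain of epithelial basement membranes, had log2 fold changes of 0.17 and -0.16 in SNU-449 and rose by 2.76 and 2.54 in HepG2.

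EREG, epiregulin, a ligand of the EGF receptor, had 38.4 and 47.9 CPM in SNU-449 siPANAD nuclei, against 51.7 and 50.1 CPM with NC. In HepG2 it had 11.4 and 10.2 CPM with siPANAD and 84.1 and 65.8 CPM with NC. HepG2 NC nuclei held the most of it and HepG2 siPANAD nuclei the least, and the line difference was 2.55 (SE 0.19, adjusted p = 5.7e-12). PIP5KL1, CORO2B, a coronin that binds actin, and MPP3, a scaffold protein, had log2 fold changes between -0.16 and 0.09 in SNU-449 and fell by 2.76 to 2.88 in HepG2. EGR1, an immediate-early transcription factor, had 14.9 and 33.9 CPM in SNU-449 siPANAD nuclei, against 17.6 and 27.8 CPM with NC, and 7.40 and 9.13 CPM in HepG2 siPANAD nuclei, against 63.5 and 50.1 CPM with NC. Its line difference of 2.89 had an SE of 0.70 and an adjusted p of 0.041, and it lost the call in 8 alternatives, with adjusted p between 0.052 and 0.13.

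Where both lines moved the same way, some genes fell far more in HepG2. IGFBP1, a liver protein that binds insulin-like growth factors, had 7.93 and 7.85 CPM in SNU-449 siPANAD nuclei, against 20.98 and 21.2 CPM with NC, and 71.1 and 105.6 CPM in HepG2 siPANAD nuclei, against 1958 and 2334 CPM with NC. It fell by 1.42 in SNU-449 and fell by 4.60 in HepG2, a line difference of 3.19 (SE 0.23, adjusted p = 4.6e-10). SEMA3A, a secreted guidance protein, had 72.3 and 76.9 CPM in SNU-449 siPANAD nuclei, against 118.5 and 106.7 CPM with NC, and 0.352 and 0.196 CPM in HepG2 siPANAD nuclei, against 5.54 and 5.25 CPM with NC. The HepG2 siPANAD values of SEMA3A rest on few counts, so the size of its line difference, 3.65 (SE 0.36), is less certain. PDZK1IP1 and NEK11 rose in both lines and more so in HepG2, by 0.86 and 0.53 in SNU-449 and by 4.31 and 2.53 in HepG2. In HepG2 NC nuclei PDZK1IP1 had 0.693 and 0.394 CPM and NEK11 0.762 and 0.984 CPM. These values also rest on few counts, so the size of both HepG2 rises is less certain.

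Each list count from here on stands beside shares of all 14691 tested genes. Of these, 31.6% had a called line difference, 16.4% above 0 and 15.2% below it, and 4.47% were opposite. In SNU-449 22.7% rose and 22.6% fell, and in HepG2 25.4% rose and 25.7% fell. Cholesterol synthesis was the list with the highest share of called genes among those of at least 10 tested members. Of 25 tested genes of cholesterol synthesis and SREBP2 targets, 22 (88.0%) had a called line difference, 21 of them below 0. In SNU-449, 2 rose, 5 fell and 18 were not called, with a median log2 fold change of -0.0471 that was 0.0323 once the purity trend was removed. In HepG2, 22 rose and 3 fell, with a median of 1.19. The median line difference was -1.12.

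LSS, lanosterol synthase, had 217 and 242 CPM in SNU-449 siPANAD nuclei, against 241 and 244 CPM with NC, and 359 and 340 CPM in HepG2 siPANAD nuclei, against 71.7 and 81.3 CPM with NC. The libraries overlapped in SNU-449 and were separate in HepG2, with a log2 fold change of -0.08 and 2.19 and a line difference of -2.27 (SE 0.16, adjusted p = 5.8e-13). HMGCS1, which makes the precursor of mevalonate, had 46.2 and 46.4 CPM in SNU-449 siPANAD nuclei, against 37.3 and 40.01 CPM with NC, and 216 and 168 CPM in HepG2 siPANAD nuclei, against 35.4 and 33.7 CPM with NC. IDI1, which converts isopentenyl diphosphate to its isomer, and ACAT2, an acetyl-CoA acetyltransferase, went in opposite directions. IDI1 fell by 0.77 in SNU-449 and rose by 1.41 in HepG2, and ACAT2 fell by 0.72 and rose by 1.47 in the same lines, although 52.3% of the exonic bases of ACAT2 lie under exons of another gene.

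One of the 3 members that fell in HepG2, looked up after the values were seen, was LBR. LBR, a sterol reductase of the inner nuclear membrane, fell by 0.74 in SNU-449 and by 0.49 in HepG2. SREBF2, the gene of SREBP2 itself, had a log2 fold change of -0.14 in SNU-449 (SE 0.11, adjusted p = 0.33) and 0.46 in HepG2 (SE 0.11, adjusted p = 0.00067).

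Promoters are shown for members of this list because they moved together in HepG2. In the 250 bases before the RefSeq start (GRCh38.p14), the letters CCAAT were found on either strand in 14 of the 18 matched promoters of the list (77.8%), against 35.6% of the 10322 promoters of tested genes and 33.0% of all 27305 promoters in the table. The letters TCACNCCAC, a form of the SREBP element, were found in 1 of the 18 (5.56%), against 0.833% of the promoters of tested genes, and that one was SREBF2. Capitals in the windows mark CCAAT or its reverse complement in LSS, MVD and STARD4, and TCACNCCAC in SREBF2, each printed along the strand of the gene. MVD, a decarboxylase of the mevalonate pathway, STARD4, a sterol carrier, and SREBF2 are shown for their promoters.
LSS: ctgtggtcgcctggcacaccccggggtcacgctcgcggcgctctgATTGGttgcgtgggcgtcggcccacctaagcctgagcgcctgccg
MVD: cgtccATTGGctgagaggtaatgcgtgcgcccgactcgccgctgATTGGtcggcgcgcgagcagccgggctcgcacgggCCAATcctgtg
STARD4: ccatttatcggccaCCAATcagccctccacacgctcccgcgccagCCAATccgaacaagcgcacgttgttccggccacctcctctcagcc
SREBF2: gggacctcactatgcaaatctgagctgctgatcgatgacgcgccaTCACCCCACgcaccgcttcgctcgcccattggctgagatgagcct
The windows lie at chr21:46228880-46228969 on the minus strand, chr16:88663166-88663255 on the minus strand, chr5:111512621-111512710 on the minus strand and chr22:41832927-41833016 on the plus strand, in the order printed. The first and second lie outside annotated genes, the third in an intron of the antisense gene STARD4-AS1 and the fourth in an exon of the antisense gene SREBF2-AS1. The MVD window holds 3 of the marked words and the STARD4 window 2. MVD had a line difference of -1.92 (SE 0.18) and STARD4 one of -1.84 (SE 0.18). A match of letters is a description and no evidence of binding.

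MYC and ribosome biogenesis went the other way. Of 44 tested genes, 31 (70.5%) had a line difference above 0 and none below it. In SNU-449, 11 fell, 3 rose and 30 were not called, with a median log2 fold change of -0.155. In HepG2, 42 fell and none rose, with a median of -0.76. The median line difference was 0.676.

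MYC, the transcription factor, had 282 and 229 CPM in SNU-449 siPANAD nuclei, against 238 and 266 CPM with NC, and 105 and 132 CPM in HepG2 siPANAD nuclei, against 332 and 279 CPM with NC. SNU-449 libraries overlapped and HepG2 libraries did not, with a log2 fold change of 0.02 (SE 0.13) in SNU-449, -1.36 (SE 0.13) in HepG2 and a line difference of 1.38 (adjusted p = 8.9e-07). RRP12, a factor that exports ribosomal subunits, had 202 and 202 CPM in SNU-449 siPANAD nuclei, against 195 and 187 CPM with NC, and 80.9 and 84.2 CPM in HepG2 siPANAD nuclei, against 193 and 207 CPM with NC. NOL6, a nucleolar protein, had a line difference of 1.70: it rose by 0.30 in SNU-449, a call lost when any 1 of the 4 SNU-449 libraries was left out and when the purity trend was removed, and fell by 1.40 in HepG2. DKC1, the pseudouridine synthase dyskerin, fell by 0.27 in SNU-449 (adjusted p = 0.044) and fell by 1.41 in HepG2. The MYC E-box letters CACGTG were found in 3 of 38 matched promoters of the list (7.89%), against 9.14% of the promoters of tested genes.

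**Figure D3:**
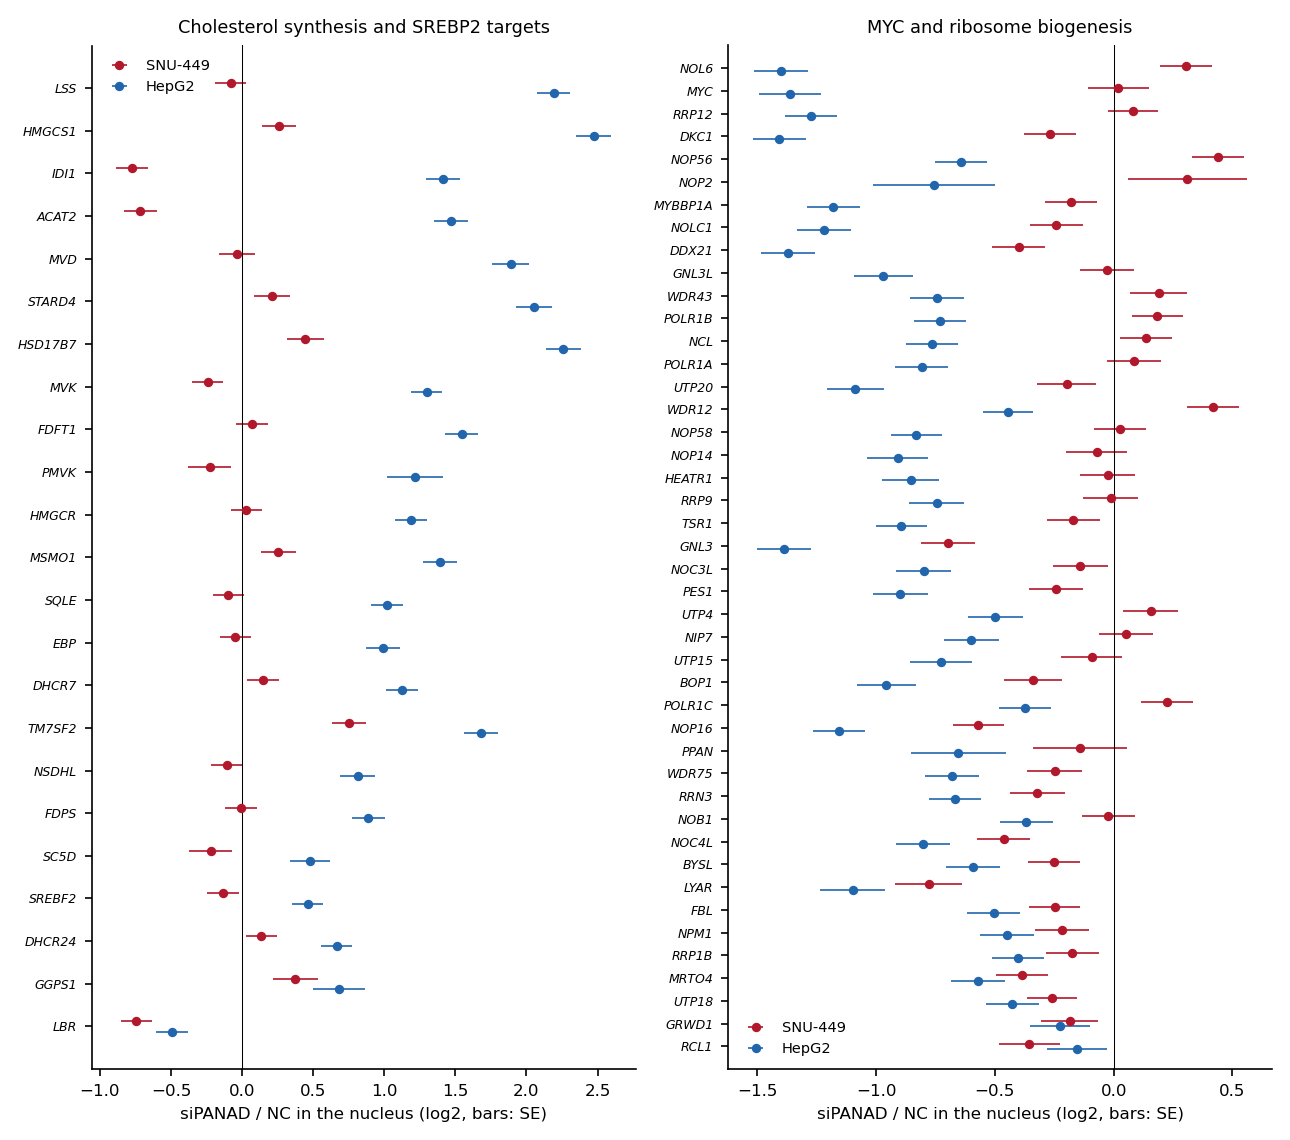
Log2 fold change of siPANAD over NC in the nucleus for tested members of 2 lists, 23 of the 25 genes of cholesterol synthesis and SREBP2 targets on the left and 44 of MYC and ribosome biogenesis on the right, with SNU-449 in red above HepG2 in blue and bars of 1 SE. On the left most blue points lie to the right of 0 and most red points near it, with LBR to the left, and on the right all blue points lie to the left of 0.

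Most immediate-early genes had a line difference above 0. Of 36 tested immediate-early genes, 13 fell and 4 rose in SNU-449 (median -0.163), 28 fell and 2 rose in HepG2 (median -1.01), and 23 had a line difference above 0 and 1 below it, JUND. DUSP6, a phosphatase that shuts off ERK, had 28.0 and 32.6 CPM in SNU-449 siPANAD nuclei, against 25.5 and 25.9 CPM with NC, and 30.5 and 41.6 CPM in HepG2 siPANAD nuclei, against 128 and 134 CPM with NC. Its line difference was 2.11 (SE 0.18, adjusted p = 1.1e-10), and 40.5% of its exonic bases lie under exons of another gene. TRIB1, a pseudokinase, had a log2 fold change of -0.23 in SNU-449 and fell by 2.08 in HepG2. IER3, an early response gene, fell in both, by 0.71 in SNU-449 and by 2.39 in HepG2.

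In the list of EGF receptor ligands, receptors and sheddases, 7 of 13 had a line difference above 0 and 2 below it. ERRFI1, a feedback inhibitor of the receptor, had 101 and 91.4 CPM in SNU-449 siPANAD nuclei, against 125 and 121 CPM with NC, and 178 and 201 CPM in HepG2 siPANAD nuclei, against 1137 and 1074 CPM with NC. It fell in both lines, by 0.36 in SNU-449 and by 2.54 in HepG2. HBEGF, another ligand, fell by 0.73 in SNU-449 and by 2.19 in HepG2. ADAM17, the sheddase that frees several of the ligands, had a log2 fold change of -0.11 in SNU-449 and fell by 1.05 in HepG2. Among YAP/TEAD targets, 10 of 22 had a line difference above 0 and 8 below it. FJX1 and CCN2, the connective tissue growth factor, fell by 0.72 and 0.56 in SNU-449 and by 2.06 and 1.72 in HepG2. F3, tissue factor, fell by 0.46 in SNU-449 (adjusted p = 0.031) and by 1.66 in HepG2.

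Cytokine genes were split. Of 22 tested genes of IL11, IL6 and NF-kappaB cytokines, 8 had a line difference above 0 and 5 below it, with 11 rising and 4 falling in SNU-449 and 7 rising and 8 falling in HepG2. CCL20, a chemokine, had 3.94 and 4.10 CPM in SNU-449 siPANAD nuclei, against 4.98 and 5.17 CPM with NC, and 21.6 and 21.3 CPM in HepG2 siPANAD nuclei, against 103 and 118 CPM with NC. ICAM1, an adhesion molecule that binds leukocytes, and OSMR, the receptor of oncostatin M, had log2 fold changes of -0.11 and -0.25 in SNU-449 and fell by 1.62 and 1.59 in HepG2. LIF, described above, belongs to this list and was opposite.

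Stress programmes also differed. Of 29 tested NRF2 antioxidant targets, 16 had a line difference above 0 and none below it. In SNU-449, 8 fell and 7 rose (median -0.0104, which was above 0 under 3 of the 4 other scalings), and in HepG2 17 fell and 4 rose (median -0.522). TXNRD1, thioredoxin reductase, had 135 and 109 CPM in SNU-449 siPANAD nuclei, against 130 and 129 CPM with NC, and 56.8 and 52.0 CPM in HepG2 siPANAD nuclei, against 130 and 137 CPM with NC. MT2A, a metallothionein, fell by 0.91 in SNU-449 and fell by 2.09 in HepG2. ABCC2, an efflux pump for conjugates, had a log2 fold change of 0.27 in SNU-449 (adjusted p = 0.045, a call lost in 10 alternatives) and -1.003 in HepG2.

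Of 43 tested unfolded protein response and ATF4 targets, 28 fell in SNU-449 and 31 in HepG2, so most members fell in each line, and 16 had a line difference above 0 and 6 below it. PPP1R15A, which restarts translation after stress, had 317 and 348 CPM in SNU-449 siPANAD nuclei, against 292 and 344 CPM with NC, and 92.0 and 109 CPM in HepG2 siPANAD nuclei, against 279 and 248 CPM with NC. HYOU1, a chaperone of the endoplasmic reticulum, fell by 0.46 in SNU-449 and by 1.72 in HepG2. SYVN1, a ubiquitin ligase of the same organelle, rose by 0.39 in SNU-449 and fell by 0.70 in HepG2, and the SNU-449 call was lost without SNU-449 NC replicate 1 or SNU-449 siPANAD replicate 2 (adjusted p = 0.052 and 0.051).

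In hypoxia and glycolysis, 11 of 35 had a line difference above 0 and 6 below it. PFKFB3 and PFKFB4, paired enzymes that set the level of fructose bisphosphate, were both opposite and in reverse order to each other. PFKFB3 had 1476 and 1455 CPM in SNU-449 siPANAD nuclei, against 880 and 949 CPM with NC, and 6.22 and 6.33 CPM in HepG2 siPANAD nuclei, against 11.9 and 15.5 CPM with NC. PFKFB4 had 44.9 and 47.5 CPM in SNU-449 siPANAD nuclei, against 77.4 and 78.8 CPM with NC, and 59.0 and 68.3 CPM in HepG2 siPANAD nuclei, against 37.5 and 49.2 CPM with NC. The line difference was 1.81 for PFKFB3 (adjusted p = 6.6e-09) and -1.31 for PFKFB4 (adjusted p = 2.5e-07). SLC2A1, the glucose transporter GLUT1, fell by 0.63 in SNU-449 and by 2.07 in HepG2. SLC16A3, a lactate transporter, rose by 1.43 in SNU-449 and had a log2 fold change of -0.44 in HepG2 (adjusted p = 0.005), a call lost without HepG2 NC replicate 2 (-0.16, adjusted p = 0.26) or without either HepG2 siPANAD library (adjusted p = 0.052 each).

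More targets of p53 and interferon had a line difference below 0 than above it. Of 33 tested p53 targets, 12 rose and 7 fell in SNU-449 (median 0.069), 18 rose and 3 fell in HepG2 (median 0.469), and the line difference was below 0 in 15 and above 0 in 5. PHLDA3, an inhibitor of AKT, had 68.2 and 93.7 CPM in SNU-449 siPANAD nuclei, against 106 and 98.2 CPM with NC, and 126 and 118 CPM in HepG2 siPANAD nuclei, against 46.7 and 65.0 CPM with NC. RRM2B, a ribonucleotide reductase subunit for DNA repair, had a log2 fold change of -0.19 in SNU-449 and rose by 1.03 in HepG2. CCNG1, cyclin G1, and POLH, a polymerase that copies past damage, were opposite: they fell by 0.58 and 0.65 in SNU-449 and rose by 0.63 and 0.47 in HepG2.

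Of 40 tested interferon-stimulated genes, 14 rose and 6 fell in SNU-449 (median 0.154), 23 rose and 2 fell in HepG2 (median 0.614), and 14 had a line difference below 0 and 4 above it. IRF1, a transcription factor of the interferon response, had 72.9 and 66.3 CPM in SNU-449 siPANAD nuclei, against 86.4 and 78.6 CPM with NC, and 76.0 and 74.9 CPM in HepG2 siPANAD nuclei, against 21.4 and 22.4 CPM with NC. Its line difference was -2.03 (SE 0.16, adjusted p = 5.7e-12). PSMB9, a subunit of the immunoproteasome, had a log2 fold change of -0.02 in SNU-449 and rose by 1.59 in HepG2. IFIT1, which binds viral RNA, rose in both, by 0.84 in SNU-449 and by 1.87 in HepG2. USP18, a brake on the response, fell by 0.60 in SNU-449 and rose by 0.60 in HepG2, and the HepG2 call was lost without HepG2 NC replicate 2 (adjusted p = 0.05) or HepG2 siPANAD replicate 2 (adjusted p = 0.067).

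Among 36 tested apoptosis regulators, 14 had a line difference below 0 and 9 above it, and 5 were opposite. The called share was 63.9%, against 31.6% of all tested genes, of which 4.47% were opposite. PMAIP1, the BH3-only protein NOXA, had 31.9 and 42.5 CPM in SNU-449 siPANAD nuclei, against 18.9 and 24.1 CPM with NC, and 3.11 and 3.06 CPM in HepG2 siPANAD nuclei, against 6.51 and 5.44 CPM with NC. BMF, described above, belongs to this list and rose in HepG2 alone. The line differences of these 2 genes had opposite signs, 1.74 for PMAIP1 and -2.41 for BMF. BIK, another BH3-only gene of the list, had the sign of BMF, with a line difference of -1.895. It fell by 0.74 in SNU-449 and rose by 1.155 in HepG2.

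Most genes of cell division fell in each line. Of 52 tested G2/M and mitosis genes, 40 fell and none rose in SNU-449 (median -0.45), 35 fell and 2 rose in HepG2 (median -0.414), and 13 (25%, against 31.6% of all tested genes) had a called line difference, 11 below 0. CENPI, a centromere protein, had 38.3 and 34.2 CPM in SNU-449 siPANAD nuclei, against 84.9 and 85.3 CPM with NC, and 18.4 and 18.1 CPM in HepG2 siPANAD nuclei, against 17.5 and 17.2 CPM with NC. SPC24, a kinetochore protein, fell by 0.70 in SNU-449 and rose by 0.53 in HepG2. BIRC5, survivin, fell by 0.72 in SNU-449 and had a log2 fold change of 0.14 in HepG2 (adjusted p = 0.39).

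Of 50 tested genes of DNA replication and nucleotide synthesis, 22 fell and 7 rose in SNU-449, 16 fell and 13 rose in HepG2, and 13 had a line difference below 0 and 5 above it, a called share of 36.0% that is near the 31.6% of all tested genes. GINS2, a part of the replicative helicase, had 9.88 and 9.90 CPM in SNU-449 siPANAD nuclei, against 44.5 and 40.5 CPM with NC, and 10.2 and 10.1 CPM in HepG2 siPANAD nuclei, against 19.6 and 19.8 CPM with NC. TK1, thymidine kinase, fell by 0.88 in SNU-449 and had a log2 fold change of 0.10 in HepG2. PCNA, the sliding clamp of DNA polymerases, fell by 0.43 in SNU-449 and rose by 0.56 in HepG2, and the SNU-449 change was -0.319 (adjusted p = 0.10) without SNU-449 siPANAD replicate 1.

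Among 28 tested G1 cyclins, their kinases, RB and E2F genes, 8 had a line difference below 0 and 3 above it (39.3% called, against 31.6% of all tested genes), and 5 were opposite. CDKN2C, the CDK4 and CDK6 inhibitor p18, had 32.0 and 24.8 CPM in SNU-449 siPANAD nuclei, against 44.4 and 44.2 CPM with NC, and 11.7 and 12.6 CPM in HepG2 siPANAD nuclei, against 6.10 and 6.56 CPM with NC. Its line difference was -1.58 (SE 0.21, adjusted p = 3.3e-07). CCNE1, cyclin E1, fell by 0.94 in SNU-449 and rose by 0.36 in HepG2, where it had an adjusted p of 0.068 without HepG2 siPANAD replicate 2.

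CDK6 and NXF1, the genes in the title of the series, did not differ between the lines beyond the test's threshold in the nucleus. CDK6, the kinase that drives entry into the cell cycle, had 91.8 and 81.4 CPM in SNU-449 siPANAD nuclei, against 150 and 150 CPM with NC, and 71.6 and 68.1 CPM in HepG2 siPANAD nuclei, against 103 and 95.7 CPM with NC. It fell by 0.79 in SNU-449 and by 0.51 in HepG2, with a line difference of -0.29 (SE 0.15, adjusted p = 0.16). NXF1 had 132 and 128 CPM in SNU-449 siPANAD nuclei, against 138 and 174 CPM with NC, and 215 and 251 CPM in HepG2 siPANAD nuclei, against 287 and 278 CPM with NC. Its log2 fold change was -0.27 in SNU-449 (adjusted p = 0.064) and -0.28 in HepG2 (adjusted p = 0.045, a call lost in 9 alternatives), and its line difference was 0.01 (SE 0.17, adjusted p = 0.96).

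Many genes of the cell surface and matrix had a line difference above 0. Of 34 tested collagens and extracellular matrix genes, 17 had a line difference above 0 and 5 below it, and of 27 integrins and adhesion receptors 14 and 3. LOXL2, an enzyme that cross-links collagen, had 841 and 860 CPM in SNU-449 siPANAD nuclei, against 1386 and 1298 CPM with NC, and 3.17 and 4.04 CPM in HepG2 siPANAD nuclei, against 30.4 and 29.8 CPM with NC. LOX, a related enzyme, fell by 0.79 in SNU-449 and by 3.30 in HepG2, and VCAN, the proteoglycan versican, by 0.69 and 2.38. ITGA2, an integrin chain that binds collagen, had 27.2 and 27.7 CPM in SNU-449 siPANAD nuclei, against 37.9 and 36.0 CPM with NC, and 45.4 and 39.5 CPM in HepG2 siPANAD nuclei, against 329 and 295 CPM with NC.

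Other adhesion genes had the reverse order or were higher in SNU-449. JUP, plakoglobin of desmosomes, had 57.5 and 63.1 CPM in SNU-449 siPANAD nuclei, against 129 and 114 CPM with NC, and 163 and 197 CPM in HepG2 siPANAD nuclei, against 105 and 95.6 CPM with NC. Its line difference was -1.86 (SE 0.16, adjusted p = 1e-10). ITGA10 had 114 and 129 CPM in SNU-449 siPANAD nuclei, against 26.02 and 28.0 CPM with NC, and 4.05 and 4.37 CPM in HepG2 siPANAD nuclei, against 6.24 and 5.97 CPM with NC. The rise of 2.17 in SNU-449 was the main part of its line difference of 2.71, and the change of -0.54 in HepG2 (adjusted p = 0.013) lost its call with total-count scaling and without HepG2 NC replicate 1 or HepG2 siPANAD replicate 1. ITGB4, an integrin chain of hemidesmosomes, rose by 1.16 in SNU-449 and had a log2 fold change of -0.24 in HepG2 (adjusted p = 0.084).

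Marker genes of the lines' own character did not move as 1 block. Of 24 tested mesenchymal markers, 8 had a line difference above 0 and 8 below it. The summed level of all 40 mesenchymal markers was 7144 and 7252 CPM in SNU-449 siPANAD nuclei, against 9558 and 9848 CPM with NC, and 5873 and 5875 CPM in HepG2 siPANAD nuclei, against 12050 and 12170 CPM with NC. MYL9, a myosin light chain of contractile cells, fell by 0.83 in SNU-449 and rose by 0.84 in HepG2, while AXL, a receptor tyrosine kinase, fell by 0.76 and 1.77 in the same lines. Of 25 tested hepatocyte markers, 6 had a line difference above 0 and 8 below it. CYP3A5, a drug-metabolising cytochrome, had 111 and 122 CPM in SNU-449 siPANAD nuclei, against 79.5 and 83.5 CPM with NC, and 222 and 210 CPM in HepG2 siPANAD nuclei, against 44.6 and 42.2 CPM with NC. C3, complement component 3, rose by 1.63 in SNU-449 and by 0.53 in HepG2, and AMBP, the precursor of bikunin, fell by 0.88 in SNU-449 and had a log2 fold change of 0.26 in HepG2 (adjusted p = 0.067). The summed level of all 48 hepatocyte markers was 1189 and 1277 CPM in SNU-449 siPANAD nuclei, 966 and 880 CPM in SNU-449 NC nuclei and between 52120 and 53630 CPM in the 4 HepG2 libraries. That SNU-449 rise came with C3, at 654 and 727 CPM with siPANAD, against 216 and 216 CPM with NC. The fibrinogen gene FGB fell there, with 86.05 and 83.9 CPM, against 272 and 228 CPM. In HepG2 siPANAD nuclei APOB had 3097 and 2844 CPM, against 7103 and 5170 CPM with NC. APOA1 rose there to 2118 and 1842 CPM, against 640 and 919 CPM, so neither sum stands for its members. Sums and these values were scaled to library totals alone. The part of these markers in the other results was not tested.

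Genes of fat metabolism were divided. Of 23 tested genes of fatty acid synthesis and desaturation, 6 had a line difference above 0 and 5 below it. ACSL3, which activates long-chain fatty acids, had 50.2 and 44.1 CPM in SNU-449 siPANAD nuclei, against 50.7 and 48.7 CPM with NC, and 104 and 101 CPM in HepG2 siPANAD nuclei, against 364 and 299 CPM with NC. DGAT1, which makes triacylglycerol, rose in both, by 0.39 in SNU-449 and by 1.80 in HepG2.

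**Figure D4:**
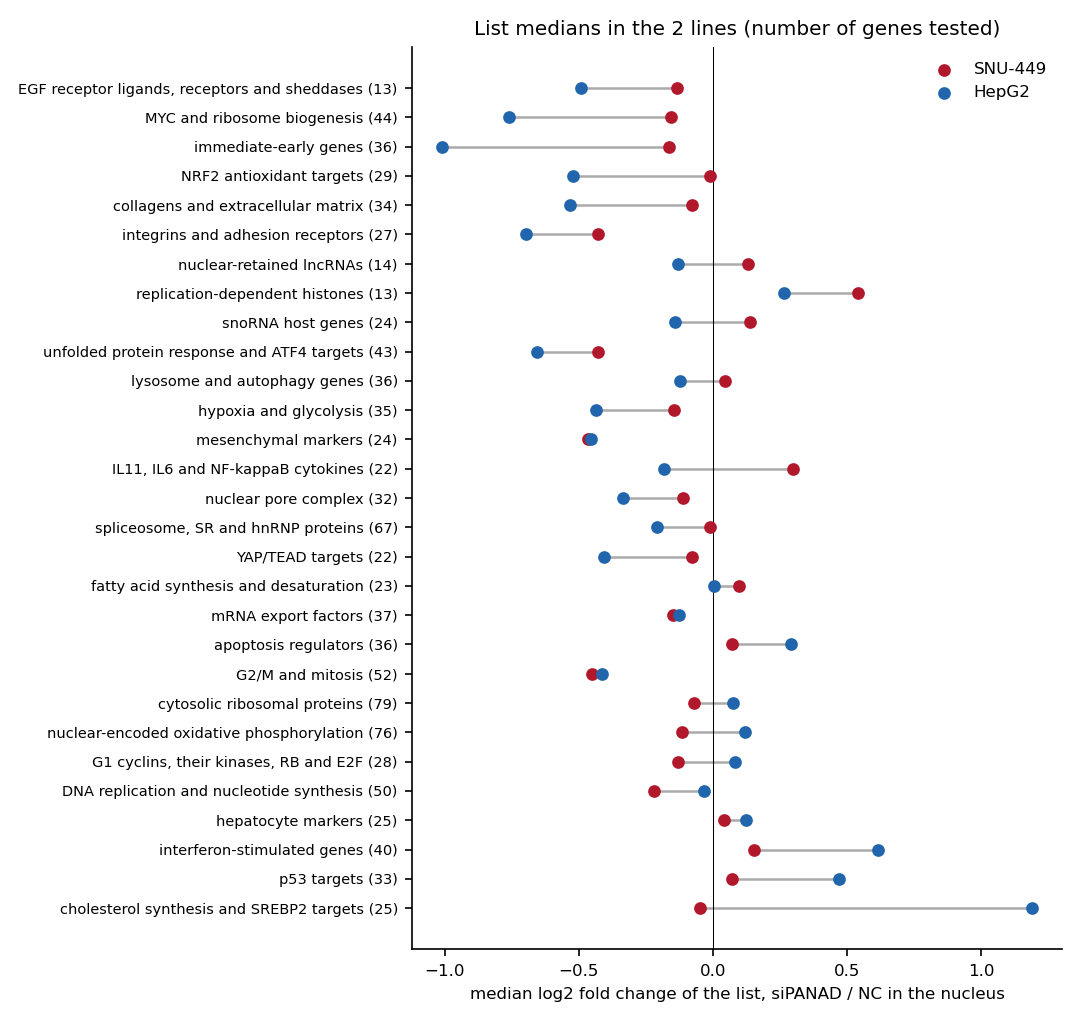
Median log2 fold change of siPANAD over NC in the nucleus for each list with at least 10 tested members, in SNU-449 (red) and HepG2 (blue), with the number of tested genes in brackets and lists ordered by the median line difference. Cholesterol synthesis has the highest HepG2 median, 1.19, and immediate-early genes the lowest, -1.01, while the SNU-449 medians of 8 lists and the HepG2 medians of 3 lists lie so near 0 that their sign depended on the scaling.

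Lists of RNA processing had a called share below that of all genes. Of 32 tested nuclear pore genes, 6 had a line difference above 0 and 1 below it, of 37 mRNA export factors 6 and 2, and of 67 spliceosome, SR and hnRNP genes 14 and 4. These shares, 21.9%, 21.6% and 26.9%, were below the 31.6% of all tested genes. DDX39B, an RNA helicase of the export complex TREX, had 498 and 539 CPM in SNU-449 siPANAD nuclei, against 276 and 330 CPM with NC, and 764 and 835 CPM in HepG2 siPANAD nuclei, against 929 and 838 CPM with NC. Its line difference was 0.92 (SE 0.16, adjusted p = 3.6e-05), and 30.8% of its exonic bases lie under exons of another gene. TPR and NUP153, proteins of the nuclear basket, had log2 fold changes of 0.05 and 0.20 in SNU-449 and fell by 0.70 and 0.47 in HepG2. SNRNP70, a protein of the U1 particle, had a log2 fold change of 0.20 in SNU-449 and rose by 0.92 in HepG2.

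Among 14 tested nuclear-retained lncRNAs, 6 had a line difference above 0 and 2 below it. Their median line difference was 0.467, and 0.238 once the purity trend was removed. With the same step the median log2 fold change in SNU-449 went from 0.131 to -0.00319, and that in HepG2 from -0.129 to -0.108. NEAT1, the scaffold of paraspeckles, rose in both lines, with 2536 and 2700 CPM after TMM scaling in SNU-449 siPANAD nuclei, against 573 and 578 CPM with NC, and 3395 and 3080 CPM in HepG2 siPANAD nuclei, against 1314 and 1553 CPM with NC. Its log2 fold change was 2.19 in SNU-449 and 1.18 in HepG2 (SE 0.11 each), a line difference of 1.01 (adjusted p = 5e-06). SNHG14 rose by 0.58 in SNU-449 and had a log2 fold change of -0.20 in HepG2. Of 24 tested snoRNA host genes, 8 had a line difference above 0 and none below it, a called share of 33.3% that is near the 31.6% of all tested genes. SNHG1 had a log2 fold change of 0.17 in SNU-449 and fell by 0.68 in HepG2, and SNHG4 rose by 0.50 in SNU-449, a call lost without SNU-449 NC replicate 1 or SNU-449 siPANAD replicate 1, and fell by 0.76 in HepG2.

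Ribosomal protein and oxidative phosphorylation genes were among the least changed lists. Of 79 tested cytosolic ribosomal protein genes, 6 had a line difference above 0 and 7 below it (16.5% called), and of 76 nuclear-encoded oxidative phosphorylation genes 1 and 11 (15.8% called). Of 13 replication-dependent histones 1 had a line difference above 0 (7.69% called). Outside these, 9 of 36 tested lysosome and autophagy genes had a line difference above 0 and 5 below it (38.9% called, against 31.6% of all tested genes).

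The cytoplasmic libraries gave the same contrast in samples that the nuclear result did not use, although the labels do not say whether both fractions came from the same dishes. There 3526 of 12199 tested genes (28.9%) had a called line difference, 14.6% above 0 and 14.3% below it. Of the 4029 genes called in the nucleus and tested in the cytoplasm, 3630 (90.1%) had the same sign in the cytoplasm, against 73.0% of all 11942 genes tested in both, 2059 were called there with the same sign and 17 with the opposite sign. The line differences of the 2 fractions had a Pearson r of 0.718 across genes, which share cultures or lines and are no independent replicates. The count of calls in the cytoplasm was 2262 without HepG2 cytoplasm siPANAD replicate 1.

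Among the 656 opposite genes, 547 were tested in the cytoplasm, 525 had the same sign of the line difference there and 407 were also called. The matching numbers were 1060, 903 and 394 for the genes called in SNU-449 alone and 1611, 1479 and 860 for those called in HepG2 alone. SDCBP2 had a line difference of -3.68 in the cytoplasm, PALM -2.42, C5 2.14 and LIF 2.22, each called. SDCBP2, PALM and C5 were also called with opposite signs there. LIF was not opposite in the cytoplasm: it fell by 0.30 in SNU-449 (adjusted p = 0.034) and fell by 2.52 in HepG2. The line difference in the cytoplasm was -1.13 for LSS, which fell by 0.46 in SNU-449 there, and 1.60 for MYC. In the cytoplasm, 18 of 25 cholesterol genes had a line difference below 0 and 1 above it, and 26 of 43 tested MYC and ribosome biogenesis genes had one above 0 and none below it.

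Some results differed between the fractions. Of 78 cytosolic ribosomal protein genes tested in the cytoplasm, 54 had a line difference below 0 and none above it, with a median of -0.654, against 7 and 6 of 79 and a median of -0.177 in the nucleus, which was 0.00778 once the purity trend was removed. CDK6 had a line difference of -0.76 in the cytoplasm (adjusted p = 0.0015), against -0.29 in the nucleus (adjusted p = 0.16). PFKFB4, CCNG1 and NOL6 were opposite in the nucleus and moved the same way in both lines in the cytoplasm. PFKFB4 rose there by 0.40 in SNU-449 and 0.83 in HepG2, and its line difference was not called (adjusted p = 0.069). CCNG1 rose by 0.72 and 1.40 in the same lines, and NOL6 fell by 0.75 and 1.61. PFKFB3 had a cytoplasmic log2 fold change of -0.007 in SNU-449 and fell by 1.69 in HepG2. RRM2B, called in HepG2 alone in the nucleus, rose in the cytoplasm by 1.21 in SNU-449 and by 1.36 in HepG2. Its line difference there, -0.16, was not called (adjusted p = 0.74). The difference between the fractions in these values was not tested.

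**Figure D5:**
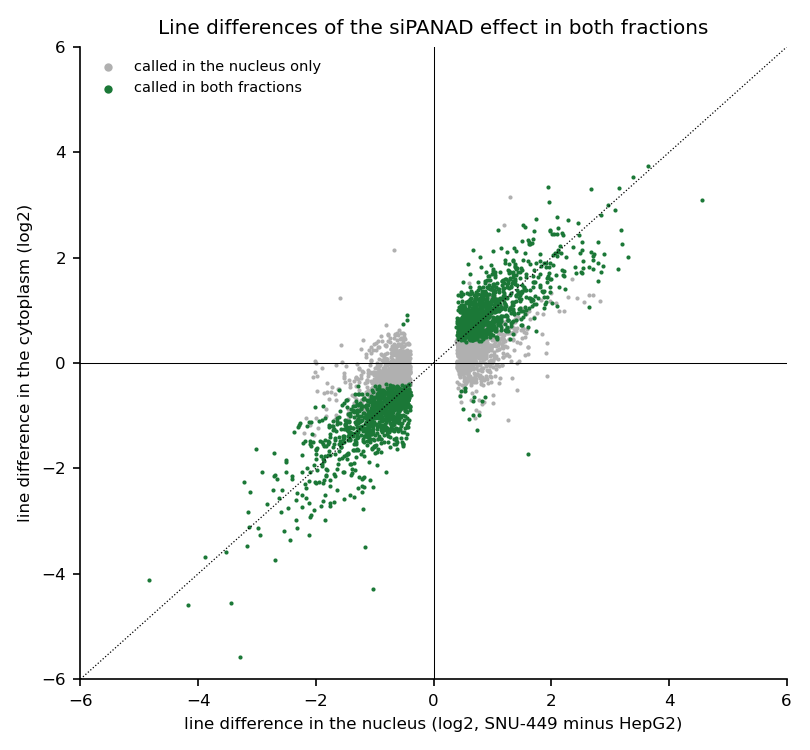
Line difference of the siPANAD effect (SNU-449 minus HepG2, log2) in the nucleus (horizontal axis) and in the cytoplasm (vertical axis) for genes with a symbol that were called in the nucleus and tested in the cytoplasm, green where also called in the cytoplasm and grey where not. Most points lie in the lower left and upper right, near the dotted line of equal values, and the gap around 0 on the horizontal axis is there because the plotted genes were called in the nucleus.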

How the data were processed

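RNA from nuclear and cytoplasmic extracts of SNU-449 and HepG2 was isolated with Trizol and made into directional libraries sequenced on an Illumina NovaSeq, per the labels' protocols. Reads were handled with Trim Galore 0.6.4 and HISAT2 2.2.1 on hg38, per the submitters' processing notes; what program counted the reads, with which annotation and with or without strand, is not given in the sources used here. Raw read counts per gene ID, 1 table a line, are what the authors deposited. Of 67938 IDs a table, 46 second copies of the pseudoautosomal regions and 1 ID broken over lines (ANK2) were left out. Symbols were found for 61398 IDs, and those without one held 0.0359% of counts.

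Groups came from the labels, and whether duplicates were separate cultures is stated only as biological duplicates, so p-values measure the spread between these samples. One model with a mean per group was fitted to the 8 nuclear libraries with edgeR 4.0.16 in R 4.3.3 (TMM scaling, robust glmQLFit, two-sided glmQLFTest), for genes that filterByExpr (minimum count 10) kept in each line separately. That left 14691 genes; 2384 kept only in HepG2 and 2784 only in SNU-449 were not tested. P-values were adjusted by Benjamini-Hochberg over all tested genes, with a threshold of 0.05, and the standard error is the absolute log2 fold change over the square root of F. The biological coefficient of variation was 0.0824 in the nucleus and 0.094 in the cytoplasm, which was fitted apart. A count of 3 corresponds to 0.170 to 0.185 CPM at the nuclear depths, and counting error is the only error that floor covers. The code was tested on simulated data. A gene not called in a line is not shown to be unchanged there.

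The members and gene lists were chosen with earlier results of these data known. Besides C7orf25, CDK6 and NXF1, genes were named by rule among called genes with at least 5 CPM in 1 group of each line and no overlap of siPANAD and NC in any called line: the 8 opposite genes per direction with the largest smaller effect, the 5 one-line genes per line and direction with the largest effect and under 0.25 in the other line, the 3 same-direction genes per sign with the largest line difference, and up to 4 called members per list. Results for some genes this rule or the lists hold are not reported here. Genes with most exonic bases under another gene were passed over except in lists. Overlap and positions come from GENCODE 29 and promoters from RefSeq. Exons of another gene also cover 26.5% of the exonic bases of IER3, 24.1% of PRR22, 23.6% of ICAM1 and 22% of IRF1. Reads of these genes are less certain too. Alternatives were other scalings, filters, thresholds and tests (DESeq2 1.42.0), all 16 libraries in 1 fit, a replicate block, removal of a purity trend and leaving out each library.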

Additional observations from a re-analysis of the deposited data

Results flagged for a closer look

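Listed here are 107 genes of the text for which the test of the line difference itself passed the threshold (edgeR quasi-likelihood test, Benjamini-Hochberg adjusted p under 0.05 over all genes tested). Some genes given in the text for comparison, such as BIK and MALAT1, also passed and are not listed. Values are log2 line differences of the nuclear siPANAD effect, SNU-449 minus HepG2.

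Among genes that rose in SNU-449 and fell in HepG2, the line difference was 2.71 for ITGA10, 2.56 for KCNAB3, 2.2 for VSIG10L, 2.15 for LIF, 2.11 for C5, 1.97 for ROBO3, 1.93 for WNK4, 1.88 for GABBR1, 1.87 for SLC16A3 and 1.81 for PFKFB3. Further values of this kind were 1.78 for ZNF792, 1.74 for PMAIP1, 1.7 for NOL6, 1.27 for ABCC2, 1.25 for SNHG4 and 1.1 for SYVN1. Among genes that fell in SNU-449 and rose in HepG2, it was -3.88 for SDCBP2, -2.74 for PALM, -2.71 for FIBCD1, -2.47 for SRRM3, -2.34 for RHOU, -2.19 for ACAT2, -2.19 for IDI1, -2.16 for RAB3IL1 and -2.0 for MSX1. Further values of this kind were -1.86 for JUP, -1.68 for MYL9, -1.58 for CDKN2C, -1.31 for PFKFB4, -1.3 for CCNE1, -1.23 for SPC24, -1.2 for CCNG1, -1.2 for USP18, -1.12 for POLH and -0.98 for PCNA. Where the effect was called in SNU-449 alone, positive line differences were 2.1 for FKBP10, 1.69 for LSR, 1.55 for LMNTD2, 1.5 for C20orf204, 1.41 for ITGB4, 1.28 for PRR22, 0.92 for DDX39B and 0.78 for SNHG14. Negative line differences with a call in SNU-449 alone were -2.12 for SOX18, -1.87 for PIEZO2, -1.65 for NOTUM, -1.38 for ECE1, -1.3 for CENPI, -1.15 for AMBP, -1.08 for FGG, -0.98 for TK1 and -0.86 for BIRC5. Where the effect was called in HepG2 alone, positive line differences were 2.97 for PIP5KL1, 2.89 for EGR1, 2.71 for MPP3, 2.64 for CORO2B, 2.55 for EREG, 2.11 for DUSP6, 2.04 for CCL20, 1.85 for TRIB1, 1.62 for ACSL3 and 1.51 for ICAM1. Further values of this kind were 1.45 for PPP1R15A, 1.38 for MYC, 1.36 for RRP12, 1.34 for OSMR, 1.21 for TXNRD1, 0.94 for ADAM17, 0.84 for SNHG1, 0.75 for TPR and 0.66 for NUP153. Negative line differences with a call in HepG2 alone were -3.12 for ASB9, -2.7 for LAMA3, -2.6 for SIGIRR, -2.41 for BMF, -2.27 for LSS, -2.21 for HMGCS1, -2.03 for IRF1, -1.61 for PSMB9, -1.47 for PHLDA3 and -1.22 for RRM2B. Further values of this kind were -0.72 for SNRNP70. Where both lines moved the same way, positive line differences were 3.65 for SEMA3A, 3.19 for IGFBP1, 2.52 for LOX, 2.45 for ITGA2, 2.4 for LOXL2, 2.18 for ERRFI1, 1.68 for VCAN, 1.68 for IER3 and 1.47 for HBEGF. Further values of this kind were 1.44 for SLC2A1, 1.34 for FJX1, 1.26 for HYOU1, 1.21 for F3, 1.18 for MT2A, 1.15 for CCN2, 1.14 for DKC1, 1.1 for C3, 1.01 for AXL and 1.01 for NEAT1. Negative line differences with both lines moving the same way were -3.45 for PDZK1IP1, -2.0 for NEK11, -1.8 for CYP3A5, -1.42 for DGAT1, -1.15 for GINS2 and -1.03 for IFIT1.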

How the results depend on the processing

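At an adjusted p under 0.01 the line difference was called for 3053 genes, 1607 above 0 and 1446 below it; 164 rose in SNU-449 and fell in HepG2, 173 did the reverse, 822 were called in SNU-449 alone, 337 moved the same way by different amounts, and 1963 were called in the cytoplasm. Leaving out 1 library at a time gave 3386 to 5026 called line differences, 1748 to 2536 above 0 and 1638 to 2490 below it, 4612 to 7348 called effects in SNU-449, 5876 to 7510 in HepG2, 198 to 358 and 206 to 408 opposite genes in the 2 directions, 778 to 1394 genes called in SNU-449 alone, 1345 to 1890 in HepG2 alone, 421 to 876 of the same direction and 2262 to 4391 in the cytoplasm; fewer libraries enter each of these fits. The DESeq2 Wald test called 3816 line differences. Under total-count scaling the median log2 fold change of all genes was 0.0416 in SNU-449 and 0.119 in HepG2, and the median line difference was -0.0841, against -0.000476, -0.00583 and -0.00136 under TMM.

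The line difference of NXF1, 0.01 and not called, changed sign to -0.0702 with total counts, -0.000579 with upper-quartile scaling, -0.00385 with a mean of at least 5 CPM in each line and -0.18 with the purity trend removed, and lay between -0.148 and 0.193 when 1 library was left out; the cause was not tested. Of 1915 values of the 107 listed genes with a called line difference under alternatives, 1907 were called in the same direction and 8, all of EGR1, were not.

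Whether replicate numbers pair the samples could not be settled, with 2 pairs a line and genes that are not independent. Replicate differences had a correlation across genes of 0.102 in SNU-449 nuclei, -0.0356 in HepG2 nuclei, -0.0507 in SNU-449 cytoplasm and 0.00934 in HepG2 cytoplasm. With a replicate block, 4727 line differences were called (2448 above 0 and 2279 below), and 340 and 361 genes were opposite in the 2 directions. In the cytoplasm 3076 were called with the block, against 3526 without it. The nuclear depth limits what can be said of scarce genes such as C7orf25.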
